A study of Rattus norvegicus with 4 samples.

Results

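The genes described here are 8 transcripts tied to the decidual reaction of the rat uterus: the decidual prolactins Prl8a2, Prl3c1 and Prl6a1, the prolactin receptor Prlr, the tissue-nonspecific alkaline phosphatase Alpl, the transcription factors Cebpb and Foxo1, and the protease inhibitor A2m. They were taken from a list of names chosen with earlier results of these data known. Each was represented by the probe set whose single gene symbol in the platform's annotation was that name, or by the brightest one over the 4 arrays where a gene had several. All 8 of the 8 were found, among 18166 genes tested. Total RNA was measured on Affymetrix whole-transcript arrays from the uterus of Sprague Dawley rats, labelled as adults 10 to 12 weeks old, on day 5 of pregnancy and before implantation. In the ormeloxifene group (2 arrays), rats had received the drug orally on day 1, at 1.25 mg per kg in gum acacia. In the vehicle group (2 arrays), only the vehicle was given. The drug, taken by mouth for contraception, binds oestrogen receptors and blocks or mimics oestrogen depending on the tissue. The labels call the arrays biological replicates and do not say whether an array held RNA of a single rat.

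In the rat, decidualisation is the change of uterine stromal cells into large secretory cells that follows the attachment of the blastocyst or an artificial stimulus, in a uterus prepared by progesterone and oestrogen. Alkaline phosphatase activity is a classical early sign of the reaction, and the secretion of prolactin-like hormones is a later one. Rodents carry a large family of prolactin-related genes in a single cluster, most of them used by decidua or by trophoblast. C/EBP beta and FOXO1 are transcription factors needed for decidual differentiation in mouse or in human stromal cells. The comparison asks whether transcripts of this programme differed between the groups before implantation.

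Prl8a2 and Prl3c1 were the members with the largest differences, and both were higher with ormeloxifene. Their promoters are shown because these transcripts lay higher together, with that of Prl6a1, the next gene of the family beside Prl8a2, which did not. The sequences are the 250 bases before the annotated start, from RefSeq in build GRCr8, where 7 of the 8 members had an entry; A2m was not among them. Each lies on the minus strand of chromosome 17, at chr17:37830677-37830926 for Prl8a2, chr17:37998829-37999078 for Prl3c1 and chr17:37888468-37888717 for Prl6a1, and is written 5′ to 3′ along the gene. Capitals mark matches on either strand to TATATA (the TATA box), GTAAACA (the forkhead motif), TTGCNNAA (the C/EBP motif) or TTCNNNGAA (the STAT motif).
Prl8a2: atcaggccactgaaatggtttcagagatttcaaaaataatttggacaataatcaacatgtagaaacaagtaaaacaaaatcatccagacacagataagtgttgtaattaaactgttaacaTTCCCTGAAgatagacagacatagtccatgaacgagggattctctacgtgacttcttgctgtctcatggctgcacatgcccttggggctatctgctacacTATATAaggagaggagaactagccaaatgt
Prl3c1: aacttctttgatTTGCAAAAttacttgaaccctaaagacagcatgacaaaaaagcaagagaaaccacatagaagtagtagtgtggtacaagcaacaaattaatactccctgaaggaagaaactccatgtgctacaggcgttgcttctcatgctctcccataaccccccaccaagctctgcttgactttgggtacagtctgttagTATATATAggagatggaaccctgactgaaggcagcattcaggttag
Prl6a1: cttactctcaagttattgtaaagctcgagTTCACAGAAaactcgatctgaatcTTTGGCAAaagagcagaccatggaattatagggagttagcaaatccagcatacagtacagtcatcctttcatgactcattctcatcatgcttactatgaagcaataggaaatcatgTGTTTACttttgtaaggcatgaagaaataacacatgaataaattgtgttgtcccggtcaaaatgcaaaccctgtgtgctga

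The Prl8a2 promoter held a TATA box that began 30 bases before the start and a STAT motif that began 130 bases before it. In that of Prl3c1, 2 overlapping TATA matches began 46 and 44 bases before the start, and a C/EBP motif began 238 bases before it. The Prl6a1 promoter held no TATATA and had a forkhead match at 81 bases, a C/EBP match at 197 bases and a STAT match at 221 bases before the start. Of 33465 promoter windows of the same length, 5.45% held the TATA letters, 3.22% the forkhead motif, 9.22% the C/EBP motif and 7.67% the STAT motif. These matches describe the letters only. None of the 4 motifs was shared by all 3 promoters.

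Values below are log2 signals after quantile normalization, and each difference is the ormeloxifene mean minus the vehicle mean in log2 units, with its standard error. Prl8a2, the decidual/trophoblast prolactin-related protein, had signals of 3.67 and 3.83 on the ormeloxifene arrays and of 3.09 and 3.20 on the vehicle arrays. The higher group did not overlap the lower one. Its means were 3.75 ± 0.11 and 3.14 ± 0.07 (SD, n = 2 each), a difference of 0.61 ± 0.21 or 1.53-fold, with a 95% interval from 0.13 to 1.09. Prl3c1, a prolactin-like hormone of early rodent decidua, had signals of 4.42 and 4.09 with ormeloxifene and 3.65 and 3.73 with vehicle. Here too the groups were apart, though the ormeloxifene arrays differed from each other more than the vehicle arrays did. The difference was 0.56 ± 0.22, or 1.47-fold, with a 95% interval from 0.05 to 1.07.

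By limma, 0 of the 8 members passed an adjusted p of 0.05, against 0% of all genes tested, where the smallest adjusted p was 0.0528. The adjusted p was 1.00 for each member. At an unadjusted p under 0.05 by limma there were 2 of 8 members, Prl8a2 and Prl3c1, both higher, where 2.2% of all genes stood at that level, 1.12% higher and 1.08% lower. The members were chosen with earlier results of these data known, so the count beside that share is no separate result. The count depended on the scaling, the variance model and the use of a block. With the replicate number as a block it stayed 2, on normalized and on deposited values, as it did with averaged probe sets. On normalized values that block put 6.76% of all genes at this level, against 2.2% without it. On the values as deposited without a block the count of members was 0. It was likewise 0 with arrays centred on their medians and with a mean-variance trend. Without ormeloxifene replicate 1 or vehicle replicate 1 it was 0 as well, and without ormeloxifene replicate 2 or vehicle replicate 2 it was 1. The labels show only that the replicates are called biological, so p-values measure spread between arrays, taken after quantile normalization unless stated otherwise. With 2 arrays against 2, exact permutation of the labels for any single gene cannot give a p under 0.333. In whole uterus, fewer cells of a type and less RNA per cell cannot be told apart.

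**Figure D1:**
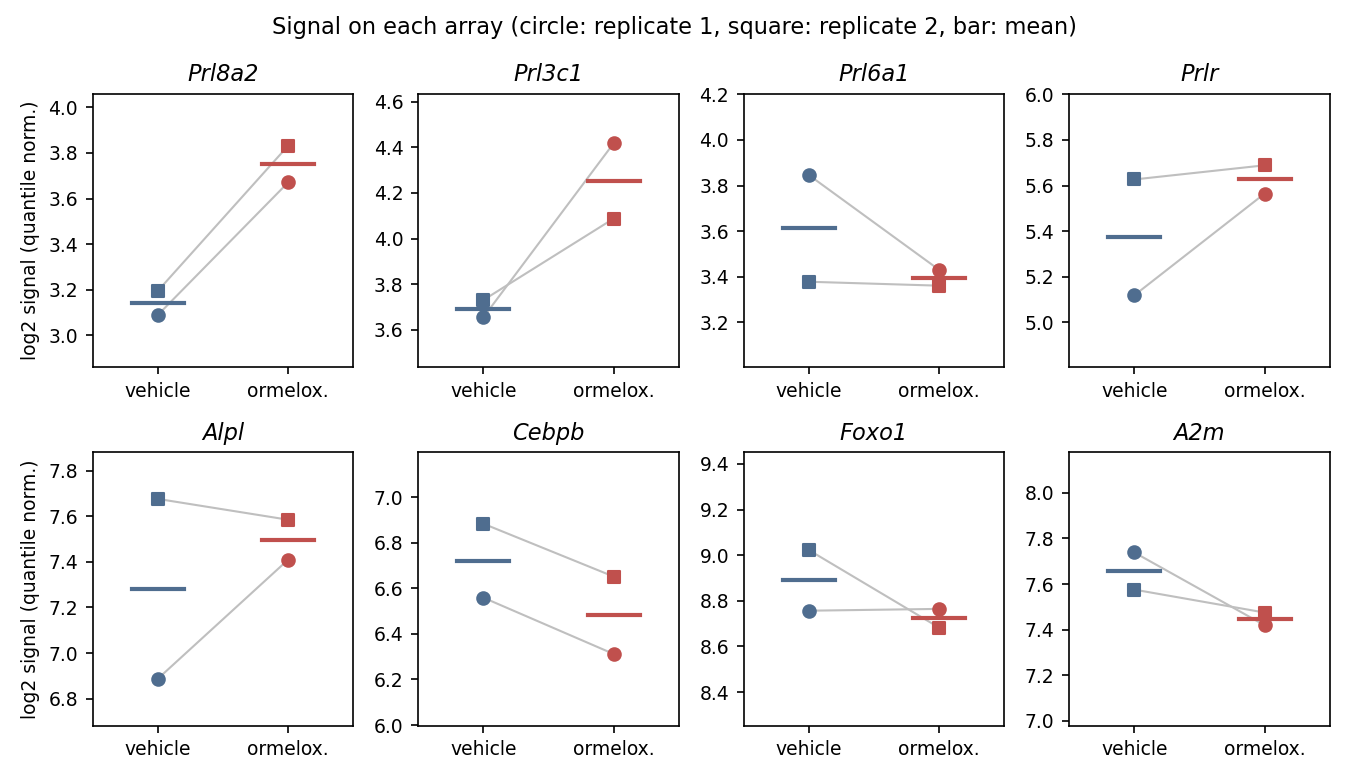
Log2 signal of each of the 8 genes on each of the 4 arrays, with circles for replicate 1, squares for replicate 2, bars for group means and grey lines joining arrays of the same replicate number; every panel spans the same range of log2 units. Ormeloxifene arrays lie above vehicle arrays for Prl8a2 and Prl3c1 and below them for A2m, and overlap them in the other 5 panels.

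Both transcripts were dim. The mean signal of Prl8a2 lay at the 3.58th percentile of the genes tested and that of Prl3c1 at the 6.77th, where 1344 olfactory and vomeronasal receptor genes, a family of sensory neurons picked for this purpose after the values had been seen, had a median percentile of 9.77. Probe sets differ in their own background, and the deposited table has no detection call, so these places describe the signals and do not show whether a transcript was present. Among those 1344 receptor genes, an unadjusted p under 0.05 by limma was reached by 38 on the higher and 16 on the lower side. Of all 18166 genes tested, 203 (1.12%) stood higher and 196 (1.08%) lower at that level. The 3 genes whose signals over the 4 arrays, centred on their own means, lay nearest to those of Prl8a2 were the olfactory receptor Or10q12, the histamine receptor Hrh4 and the amino acid transporter Slc6a20b. Their root mean square distances were 0.026, 0.030 and 0.032 log2 units. For Prl3c1 the distance was 0.18, where A2ml1, a gene outside the prolactin family, lay at 0.17 and the median over all genes was 0.35. Genes that are higher in the same group lie closer by this measure.

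Prl6a1, the third decidual prolactin, had signals of 3.43 and 3.36 with ormeloxifene and 3.85 and 3.38 with vehicle. Only vehicle replicate 1 stood apart from the other 3 arrays. The difference was -0.22 ± 0.24 (95% interval -0.76 to 0.33), and without vehicle replicate 1 it was 0.02. This was the only one of the 8 genes with an exact tie in the deposited values, 3.43 on replicate 2 of each group. In the whole table such ties were found 488 times between the replicate 1 arrays, 551 times between the replicate 2 arrays and 0 times for the remaining 4 pairings. Differences within each replicate number are therefore given as well. They were 0.58 and 0.64 for Prl8a2, 0.76 and 0.36 for Prl3c1, and -0.42 and -0.02 for Prl6a1, in numbers 1 and 2.

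Prlr encodes the membrane receptor for prolactin, which signals through JAK2 and STAT5. Its signals were 5.56 and 5.69 with ormeloxifene and 5.12 and 5.63 with vehicle. Vehicle replicate 1 was low and the other 3 arrays lay close together. The difference was 0.25 ± 0.24 (95% interval -0.31 to 0.82), and without vehicle replicate 1 it was 2.4e-05.

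Alpl, whose product is the alkaline phosphatase used to stain early decidua, showed the same layout. It had signals of 7.41 and 7.58 with ormeloxifene and of 6.89 and 7.68 with vehicle, so the 2 vehicle arrays enclosed the ormeloxifene arrays. The difference was 0.22 ± 0.29 (95% interval -0.46 to 0.89), with 0.52 in number 1 and -0.09 in number 2. Without vehicle replicate 1 it was -0.18.

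Cebpb encodes C/EBP beta, without which the mouse uterus does not decidualise. Signals were 6.31 and 6.65 with ormeloxifene and 6.56 and 6.88 with vehicle. The groups overlapped, yet within each replicate number the ormeloxifene array was the lower, by -0.25 in number 1 and -0.23 in number 2. The overall difference was -0.24 ± 0.23 (95% interval -0.79 to 0.31). It was -0.07 without ormeloxifene replicate 1 and -0.08 without vehicle replicate 2, against -0.41 without ormeloxifene replicate 2 and -0.40 without vehicle replicate 1.

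Foxo1 encodes a forkhead factor that acts on prolactin and IGFBP1 genes in human decidual cells. Signals were 8.76 and 8.68 with ormeloxifene and 8.76 and 9.02 with vehicle, with vehicle replicate 2 the highest. The difference was -0.17 ± 0.21 (95% interval -0.66 to 0.33), and the dimmer probe set of the gene gave -0.16. Leaving out vehicle replicate 2 gave -0.03, and leaving out vehicle replicate 1 gave -0.30.

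A2m encodes alpha-2-macroglobulin, a broad protease inhibitor that rat decidua makes in quantity. Its signals were 7.42 and 7.48 with ormeloxifene and 7.74 and 7.58 with vehicle. The groups did not overlap after quantile normalization, with ormeloxifene lower, but they overlapped on the values as deposited. The difference was -0.21 ± 0.21 (95% interval -0.69 to 0.27).

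Taken by their roles, the 8 members showed no common direction, with 4 higher and 4 lower. The prolactins themselves gave 2 higher and 1 lower, and both transcription factors had lower means with intervals that include 0. Groups were apart in 3 of the 8 members, 2 higher and 1 lower, beside 25.7% of all genes tested. The median difference was 0.02 over the members and 0.02 over all genes. A p that misses the threshold does not show that the groups were alike, and the intervals of the 6 members other than Prl8a2 and Prl3c1 reached from -0.79 at the lowest bound to 0.89 at the highest.

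**Figure D2:**
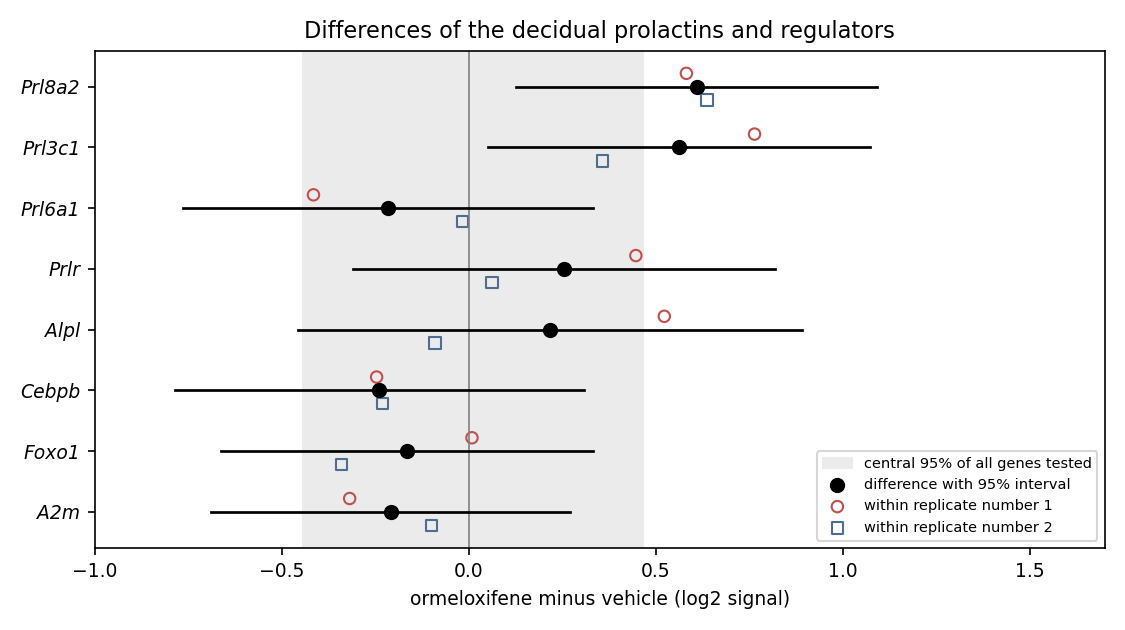
Difference between groups (ormeloxifene minus vehicle, log2 signal) of each gene as a filled point with its 95% interval from limma, with open circles and squares for the differences within replicate numbers 1 and 2, and a grey band for the central 95% of all genes tested (-0.44 to 0.46). Of the 8 genes, only Prl8a2 and Prl3c1 have filled points beyond the band and intervals that leave out 0. The gap between the open marks is widest for Alpl, followed by Prl3c1, Prl6a1 and Prlr.

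The remaining prolactin family genes are mostly products of trophoblast, and of 20 listed, 19 were measured. They gave 9 higher and 10 lower, with a median difference of -0.03 and a range from -0.73 to 0.36. At an unadjusted p under 0.05 stood 1 of the 19, Prl8a3, and at an adjusted p of 0.05 stood 0. Prl8a3, a relative of Prl8a2 in the same subfamily, had signals of 3.58 and 3.64 with ormeloxifene and 4.68 and 4.005 with vehicle. It was thus lower where Prl8a2 was higher, by a difference of -0.73 ± 0.27 (adjusted p = 1.00 by limma), which was -0.40 without vehicle replicate 1. Prl8a3 was named for the smallest p of its list in this same comparison, so its opposite direction to Prl8a2 is no separate result. Prl8a7, the next smallest in p, differed by 0.36 ± 0.22. All 22 family genes measured, decidual ones included, lay in the lowest part of the signal range, from the 0.41th to the 12.7th percentile. Family members resemble each other in sequence, and how far a probe set picks up its relatives is not known from the sources used here.

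Along chromosome 17 the genes beside Prl8a2 among those measured were Prl2b1 (0.16 ± 0.30) and Prl6a1, and those beside Prl3c1 were Prl3b1 (0.01 ± 0.23) and Prl itself (0.00 ± 0.34). Prl3b1 is placental lactogen II and Prl is pituitary prolactin. The 2 higher decidual prolactins were therefore not neighbours, and 3 measured genes with differences from -0.26 to 0.01 lay between them.

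**Figure D3:**
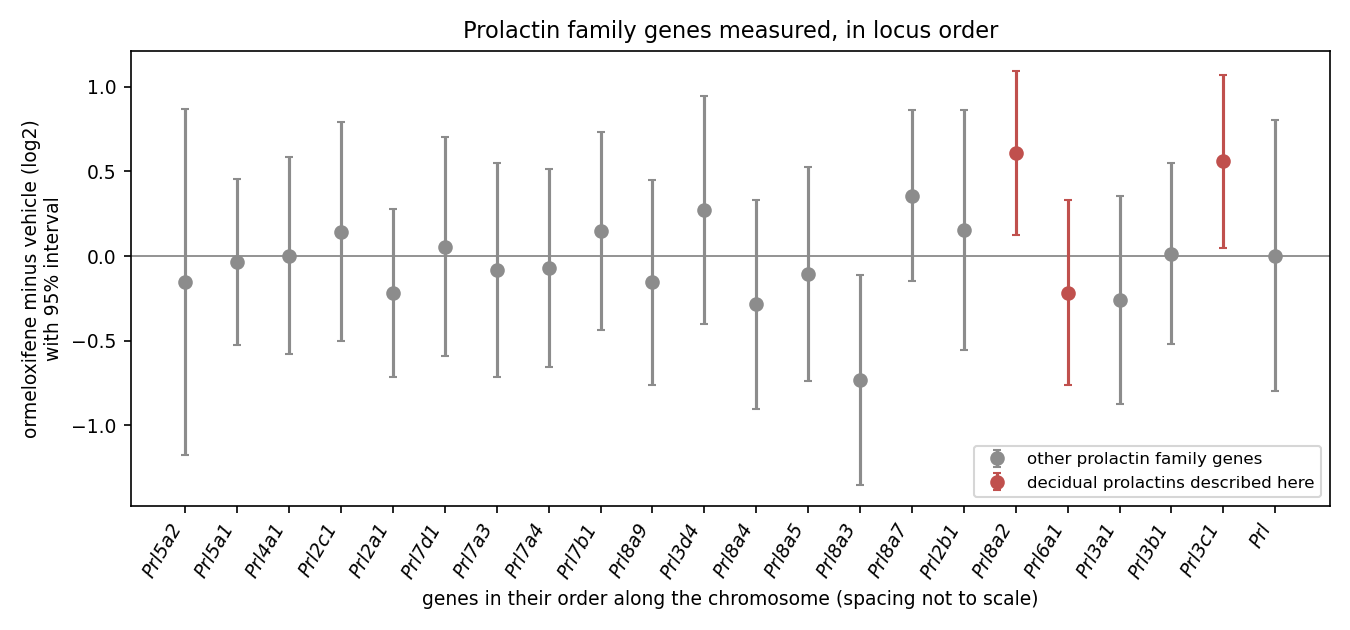
Differences (ormeloxifene minus vehicle, log2 signal, with 95% intervals) of the 22 prolactin family genes measured, in their order along the chromosome with spacing not to scale; red marks the 3 decidual prolactins. Intervals leave out 0 for Prl8a2 and Prl3c1 on the higher side and for Prl8a3 on the lower side.

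Downstream of the receptor, 13 of 14 listed genes of prolactin receptor signalling were measured, 5 higher and 8 lower, with a median difference of -0.01. At an unadjusted p under 0.05 stood 1 of them, Socs3, the feedback inhibitor of JAK and STAT signalling. Its signals were 6.14 and 6.13 with ormeloxifene and 6.62 and 7.15 with vehicle. The ormeloxifene arrays nearly coincided and lay below both vehicle arrays. The difference was -0.75 ± 0.24 (adjusted p = 1.00 by limma), with -0.49 in number 1 and -1.02 in number 2, and it was -0.49 without vehicle replicate 2. Stat3, a transducer of the LIF signal that precedes implantation in mice, had 8.96 and 8.87 against 9.24 and 9.49, a difference of -0.45 ± 0.21 (adjusted p = 1.00 by limma). The kinase that the prolactin receptor uses, Jak2, differed by -0.01, and its main targets Stat5a and Stat5b by 0.11 and 0.21. The other inhibitors induced by cytokines gave -0.24 for Socs1, -0.19 for Socs2 and -0.15 for Cish.

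Of 30 other genes of decidualisation listed, 27 were measured, 12 higher and 15 lower, with a median difference of -0.04. At an unadjusted p under 0.05 stood 2 of the 27, both lower, and 0 passed the adjusted threshold. Igfbp1, a secreted binding protein that serves as a decidual marker in humans, had signals of 6.08 and 5.81 with ormeloxifene and of 6.62 and 7.36 with vehicle. Cryab, a small heat shock protein, had 8.01 and 7.90 against 8.56 and 8.40. Groups were apart for each. The difference of Igfbp1 was -1.05 ± 0.29, with -0.54 in number 1 and -1.56 in number 2, and leaving out vehicle replicate 2 gave -0.67, against -1.42 when vehicle replicate 1 was left out. The difference of Cryab was -0.52 ± 0.21, with -0.55 in number 1 and -0.50 in number 2. Igfbp1 and Cryab were named for the smallest p of their list in this same comparison. Their opposite direction to Prl8a2 and Prl3c1 is therefore no separate result. Factors that act before or early in the reaction had 95% intervals that include 0, with Bmp2 at -0.11, Wnt4 at -0.34, Hand2 at -0.31, Hoxa10 at 0.41 and the prostaglandin synthase Ptgs2 at 0.10. For Wnt4 and Hand2 both ormeloxifene arrays lay below both vehicle arrays. Over the 27 genes, groups were apart for 5 on the higher side and 6 on the lower, beside 25.7% of all genes tested. With the replicate number as a block in limma, which puts 6.76% of all genes at an unadjusted p under 0.05, 5 of the 27 decidualisation genes stood at that level. Igfbp1 and Cryab were the 2 lower ones, and Tdo2 (0.47, adjusted p = 0.652), Hoxa10 (adjusted p = 0.701) and Fst (0.42, adjusted p = 0.701) the 3 higher ones by limma. With the same block, the receptor signalling list had 2 lower, Socs3 and Stat3 (adjusted p = 0.701), and 1 higher, Ghr (0.39, adjusted p = 0.725), by limma.

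Among other C/EBP and FOXO family genes, 7 of 8 were measured, 3 higher and 4 lower, with a median difference of -0.05 and 0 at an unadjusted p under 0.05. Cebpa differed by -0.34 ± 0.22 and Cebpe by 0.27 ± 0.29, while the FOXO1 relatives Foxo3 and Foxo4 stood at 0.09 and 0.13.

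Of 10 listed relatives of Alpl and A2m, 6 were measured, 5 higher and 1 lower, with a median difference of 0.18. A2ml1, an alpha-2-macroglobulin-like protease inhibitor of epithelia, had signals of 7.26 and 7.54 with ormeloxifene and 6.69 and 6.45 with vehicle. The groups were well apart, in the opposite direction to A2m. The difference was 0.83 ± 0.22 or 1.78-fold (adjusted p = 1.00 by limma), with 0.58 in number 1 and 1.09 in number 2. Alpi, the intestinal alkaline phosphatase, differed by 0.35 ± 0.23, and Lrp1, the receptor that clears alpha-2-macroglobulin complexes, by 0.19.

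**Figure D4:**
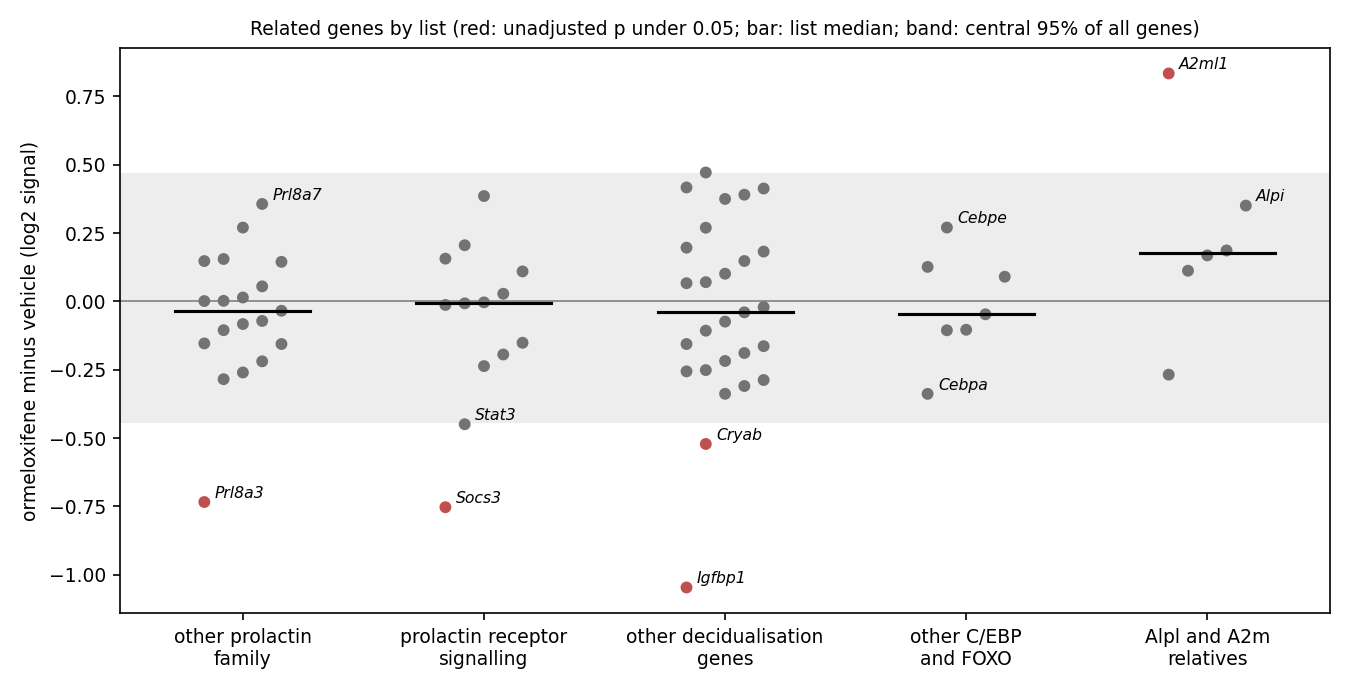
Difference of each measured gene (ormeloxifene minus vehicle, log2 signal) in the 5 lists of related genes, with red points at an unadjusted p under 0.05, black bars at list medians and a grey band for the central 95% of all genes tested. List medians lie between -0.05 and 0.18; Prl8a3, Socs3, Igfbp1 and Cryab stand below the band and A2ml1 above it, with Stat3 just below and Tdo2 just above its edges.

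As to the labelled tissue, stroma markers lay between the 90.2th and 99.9th percentile of signal, epithelium markers between the 61.0th and 90.8th and smooth muscle markers between the 89.5th and 99.8th. Trophoblast markers, which bear on prolactin family transcripts, lay lower in signal, between the 9.06th and 52.8th percentile. They were lower with ormeloxifene in 7 of 7 measured, 0 of them at an unadjusted p under 0.05 by limma. Of all 18166 genes tested, 8464 were lower. The mean log2 level of the 7 markers was 5.37 and 5.40 with ormeloxifene and 5.56 and 5.61 with vehicle. Tfap2c was shifted most, at -0.43 ± 0.23. Smooth muscle markers were higher in 4 of 4 measured, 0 of them at an unadjusted p under 0.05 by limma. Their mean levels were 10.9 and 10.8 against 10.7 and 10.5 (Myh11 0.37 ± 0.22). Stroma markers, of the cells that decidualise, gave 3 higher and 3 lower, with mean levels of 10.4 and 10.2 against 10.2 and 10.2 (Vim 0.17 ± 0.21). Epithelium markers gave 3 higher and 4 lower (7.49 and 7.54 against 7.53 and 7.58; Krt18 -0.40 ± 0.31). Liver markers were counted because A2m is also a plasma protein. Of the 6 measured, 4 were higher and 2 lower, with mean levels of 5.92 and 5.84 against 6.14 and 5.93, yet Alb stood at -1.34 ± 0.21. Of the 2 erythroid markers measured, Hba-a1 differed by -0.73 ± 0.21 and Slc4a1 by 0.08 ± 0.23. Granulocyte markers, of cells that also hold alkaline phosphatase, gave 3 higher and 2 lower, with mean levels of 5.07 and 4.98 against 4.81 and 5.09. Of these, S100a9 differed by -0.57 ± 0.23 (adjusted p = 1.00 by limma), the 1 of the 5 at an unadjusted p under 0.05. Mpo differed by 0.66 ± 0.37, but by 0.10 without vehicle replicate 1 and 1.22 without vehicle replicate 2. Natural killer markers gave 2 higher and 4 lower, with mean levels of 5.50 and 5.55 against 5.69 and 5.60. Of these, Gzmb differed by -0.53 ± 0.24, by -0.11 with its probe sets averaged and by -0.28 without vehicle replicate 1. The part of any of these cell types in the differences of the 8 genes was not tested.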

How the data were processed

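The deposited table holds log2 signals of 36685 probe sets on 4 arrays, ranging from 0.92 to 13.59. The authors used Affymetrix Expression Console, per the submitters' processing notes; of its version, summary method and genome build, the sources used here give none. Per the labels' protocols, 100 ng of total RNA was converted into biotinylated single-stranded DNA. The number of arrays limits precision.

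Columns had unequal medians (5.67 to 5.93), so quantile normalization over all probe sets was applied. Annotation named a single gene for 18511 probe sets and several for 575, while 17599 had no symbol; of the 18511, 18394 matched the GRCr8 annotation by gene number. The brightest probe set stood for each of 291 genes with several, which left 18166. The fit used limma 3.58.1 in R 4.3.3 (lmFit and eBayes, 2-sided, no trend, no block, 7.55 moderated degrees of freedom) with Benjamini-Hochberg adjustment over all genes and a threshold of 0.05, and was tested on simulated data. Alternatives were a replicate block, no or median scaling, a trend, leaving out the dimmest 20% of genes, averaged probe sets, all probe sets, and each array left out.

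Members and lists were chosen with earlier results of these data known. Named genes were the members, the 2 of smallest p in each of 5 lists of related genes, the 3 nearest to Prl8a2 and the most shifted marker of each of 8 marker lists. Other genes were named from those lists for their roles, after their values had been seen. List genes without a value were not analysed here.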

Additional observations from a re-analysis of the deposited data

How the results depend on the processing

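In all 12 alternatives, 0 of the 8 members passed the adjusted threshold; their lowest adjusted p was 0.507, for Prl8a2 with the replicate block on deposited values. Prl8a2 ran from 0.49 with arrays centred on medians to 0.69 without ormeloxifene replicate 1, and Prl3c1 from 0.40 without ormeloxifene replicate 1 to 0.73 without ormeloxifene replicate 2. Of the 8 members, 6 kept their sign in every alternative run, though Prlr, 1 of them, stood at 2.4e-05 without vehicle replicate 1. With one array left out at a time, the range was -0.45 to 0.0175 for Prl6a1 and -0.18 to 0.61 for Alpl, the positive and the negative end respectively being without vehicle replicate 1. For Cebpe it was -0.0547 to 0.60 and for Krt18 -0.85 to 0.0467. Where a group is then a single array, it is assumed to vary like the other.

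The count of members at an unadjusted p under 0.05 was 2, and became 0 on the values as deposited, 0 with arrays centred on medians, 0 with the trend, 1 with all probe sets tested, and 0 to 1 with an array left out. It was also 0 with the dimmest 20% of genes left out, since that removes Prl8a2, Prl3c1, Prl6a1 and all other prolactin family genes, for which this setting gives no value. The count stayed 2 with the replicate block, on normalized and on deposited values, and with averaged probe sets. On normalized values that block put 6.76% of all genes at an unadjusted p under 0.05 by limma. Of all genes, 0 passed the adjusted threshold by limma (399 at an unadjusted p under 0.05), against 5 with the replicate block, 84 with that block on unscaled deposited values, 1 with arrays centred on medians, 3 with the trend, 4 without the dimmest 20%, 1 with averaged probe sets, and 0 to 3 with an array left out. None of these were members. Among other genes named, Alb (adjusted p = 0.000109), Igfbp1 (0.0117) and A2ml1 (0.0474) passed by limma with the replicate block on deposited values.

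The labels do not tie the replicate numbers to a shared animal or batch. Over genes, signals of the 2 arrays numbered 1 correlated at r = 0.980 and those of the 2 numbered 2 at 0.983. The 2 ormeloxifene arrays correlated at 0.973 and the 2 vehicle arrays at 0.963, so arrays were more alike by number than by treatment. Deviations of same-numbered arrays from their group means correlated at r = 0.475 across genes, which are not independent replicates. With the replicate block on normalized values, the adjusted p by limma was 0.522 for Prl8a2 and 0.613 for Prl3c1. The block changed no call on a member there. On the values as deposited, it raised the count of members at an unadjusted p under 0.05 by limma from 0 to 2. Signals near the low end of the range limit what can be read from the prolactins.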
